A study of Mus musculus with 38 samples.

Results

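Oligodendrocyte progenitor cells (OPCs) of the adult mouse cortex were examined by single-nuclei RNA-seq in animals in which Trim28, a chromatin corepressor, had been deleted in the cortical lineage. OPC nuclei were chosen by their UMI counts (unique molecular identifiers, 1 per captured transcript). A nucleus was an OPC when it held at least 3 UMIs of Pdgfra, Vcan and Cspg4 in all, and when this sum lay above each of the sums of excitatory, inhibitory, astrocyte, oligodendrocyte and microglia genes formed in the same way. The rule found 448 OPC nuclei among 14296 nuclei, which was 3.13%. By the methods of the study the control littermates were Emx1-Cre (+/-); Trim28-flox (+/-), so they carried the same Cre and could lose 1 of the 2 Trim28 alleles. The Trim28-KO animals were Emx1-Cre (+/-); Trim28-flox (+/+). A figure legend of the study instead calls the controls of the adult cortex RNA-seq Cre-negative. All animals were 3 months of age, and the nuclei came from FACS-sorted cortical preparations of control animals 64 and 65 and of Trim28-KO animals 60 and 73, with 1 library each. Bulk RNA-seq of the cortex was available for these 4 animals, for 1 more Trim28-KO animal (76) and for 1 more control (77).

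OPCs are the dividing glia of the adult brain that give rise to myelinating oligodendrocytes. They are held in the progenitor state in part by platelet-derived growth factor, which acts through the receptor encoded by Pdgfra, and they receive synapses from neurons. Trim28 is recruited to DNA by KRAB zinc finger proteins, and there assembles enzymes that deposit repressive histone marks, mainly on endogenous retroviruses and on zinc finger gene clusters. Emx1-Cre acts in the dorsal forebrain progenitors that give rise to excitatory neurons, astrocytes and a part of the cortical oligodendrocyte lineage, whereas inhibitory neurons and microglia come from other sources. Cortical OPCs of ventral origin would keep Trim28 in this model, and the counts used here do not separate OPCs by origin.

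The OPC nuclei carried the genes of this cell type. Values in this paragraph are UMIs of a gene per 1000000 UMIs (CPM) over the summed OPC nuclei, and are descriptive, since the nuclei were chosen by 3 of these genes and the others were read in the same nuclei. Pdgfra averaged 976 ± 80.9 CPM (SD, n = 4 animals) in OPC nuclei and 1.23 CPM in all other nuclei. Vcan, which encodes the matrix proteoglycan versican, averaged 1191 ± 193 CPM against 8.03 CPM, and Cspg4, which encodes the NG2 proteoglycan, averaged 310.5 ± 73.7 CPM. Neu4, a sialidase gene that the rule did not use, averaged 257 ± 18.0 CPM in OPC nuclei, 267 times its mean in the other nuclei, and was detected in 56.7% of OPC nuclei. Of the genes outside the rule with at least 50 CPM in OPC nuclei, the highest ratio was that of Sapcd2, at 316-fold and 50.2 CPM. C1ql1, a complement-related gene that encodes a synapse organizer, stood at 244-fold, and Gpr17, a receptor gene of progenitors about to differentiate, at 121-fold. All 4 animals thus showed the markers of the label.

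**Figure D1:**
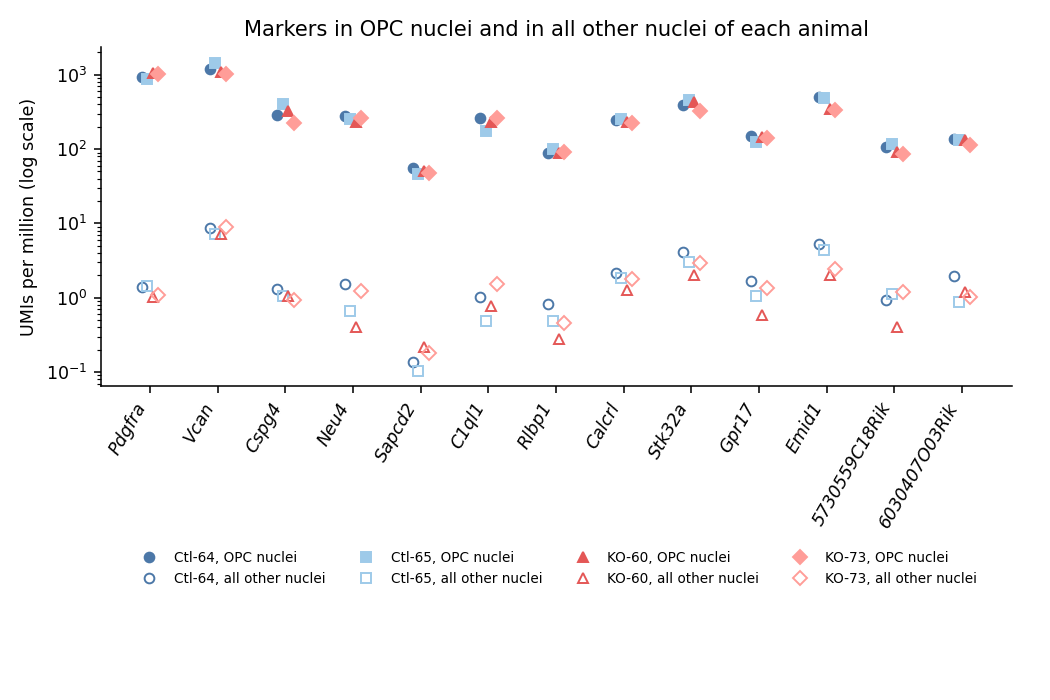
The vertical axis gives UMIs as CPM on a log scale for 13 genes, with filled symbols for the summed OPC nuclei of each animal and open symbols for all its other nuclei. Pdgfra, Vcan and Cspg4 chose the nuclei, and the other genes were ranked by their ratio. For each gene the OPC nuclei of all 4 animals lie above the other nuclei.

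Some nuclei near the threshold resembled another cell type. The 25 OPC nuclei with a marker sum of exactly 3 had a median of 2302 UMIs per nucleus, and Lhfpl3, an abundant OPC gene, stood at 1033 CPM in them and at 4882 CPM in the 423 nuclei above this sum. The 36 nuclei just outside, with a sum of 2, held Lhfpl3 at 604 CPM. Of the 25 nuclei at the threshold, 9 held 2 or more UMIs of fibroblast and mural cell genes, cells of the meninges and vessel walls that can also express Pdgfra. Among all OPC nuclei 20 did so, 6 and 3 in the control animals and 4 and 7 in the Trim28-KO animals. The summed level of these 18 genes was 163 and 108 CPM in controls 64 and 65 and 218 and 543 CPM in Trim28-KO animals 60 and 73, and only Acta2 had no UMI. Of the 448 OPC nuclei, 59 held 2 or more UMIs in the sum of another cell type. The libraries shared 36 cell barcodes between pairs, none of them an OPC barcode in both.

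OPC nuclei made up 3.58% (125 of 3496, exact 95% binomial interval 2.98 to 4.25%) and 2.72% (85 of 3130, 2.17 to 3.35%) of the nuclei of controls 64 and 65. They made up 3.11% (118 of 3799, 2.58 to 3.71%) and 3.10% (120 of 3871, 2.58 to 3.70%) in Trim28-KO animals 60 and 73. Both Trim28-KO values lay between the control values, and the mean difference of -0.0426 percentage points gave p = 1.0 in the two-sided exact permutation test over animals, which with 2 against 2 cannot go below 0.333. The oligodendrocyte counts by the same form of rule were 609 and 375 in the controls and 313 and 284 in the Trim28-KO animals. There were 20.5 and 22.7 OPC nuclei per 100 oligodendrocyte nuclei in the controls and 37.7 and 42.3 in the Trim28-KO animals, ratios that did not overlap. A share of sorted nuclei also depends on sorting and on the nucleus calls. Intervals cover counting error only.

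The Trim28-KO OPC nuclei were shallower. Their median was 2962.5 and 3044.5 UMIs per nucleus, against 4065 and 3817 in the controls, and the summed OPC counts that entered the comparisons of genes were 587868, 371437, 426884 and 441584 UMIs for animals 64, 65, 60 and 73. The median of the rule's marker sum was 11 and 12 in the controls and 8 and 7 in the Trim28-KO animals. With every nucleus thinned to 1000 UMIs before the rule was applied, the OPC shares were 1.88% and 1.59% in the controls and 1.56% and 1.42% in the Trim28-KO animals. In the gene results below depth was scaled by library size, and thinned values are given for the shares of nuclei with a UMI.

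Trim28 itself was checked first. In bulk cortex it fell by 1.39 ± 0.15 on the log2 scale (SE, n = 3 against 3, edgeR adjusted p = 0.00038), with 575, 349 and 482 reads in controls 64, 65 and 77 and 107, 165 and 112 reads in Trim28-KO animals 60, 73 and 76. In the OPC nuclei Trim28 had 6 and 2 UMIs in the controls and 5 and 11 in the Trim28-KO animals, too few to be tested. Which exons are deleted is not given in the sources used here, and a tag at the end of the transcript that lies outside them would check nothing.

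To see what changed in OPCs, UMIs were summed per animal and compared between Trim28-KO and control animals with edgeR's quasi-likelihood test over 7214 genes. A gene was called at a Benjamini-Hochberg adjusted p under 0.05. In total, 17 genes rose (0.236% of those tested) and 10 fell (0.139%). They rose or fell without overlap between the groups in all 27 cases, while 40.5% of all tested genes did not overlap. DESeq2 on the same sums called 3 genes, C230088H06Rik, Gm13152 and Vegfa, all higher, and 0 lower, with 170 genes at an unadjusted p under 0.05 in either direction. The edgeR calls numbered 29 up and 29 down without a filter on low counts, and 6 up and 0 down with a marker sum of at least 5.

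Of the 10 largest rises, 5 were in long non-coding RNA genes and a zinc finger gene, described first. 2410018L13Rik, with the largest rise, had 2 and 1 UMIs in controls 64 and 65 and 19 and 32 in Trim28-KO animals 60 and 73, a log2 fold change of 4.07 ± 0.62 (SE, adjusted p = 0.00028, edgeR). Gm13152, which the annotation lists as the zinc finger gene Zfp982, went from 4 and 2 UMIs to 35 and 29 (log2 fold change 3.46 ± 0.51, adjusted p = 0.00017). Both were near the detection limit in control OPCs and readily seen in Trim28-KO OPCs. C230088H06Rik had 9 and 5 UMIs in the controls and 45 in each Trim28-KO animal, for a log2 fold change of 2.76 ± 0.38 (edgeR adjusted p = 7.7e-05). Gm26624 rose from 18 and 6 UMIs to 54 and 44 (2.13 ± 0.35 on the log2 scale), and Gm26573 from 14 and 4 to 32 and 46 (2.21 ± 0.39). These 5 genes were set together after their values were seen. C230088H06Rik and Gm13152 kept their calls under all 13 alternative settings of this comparison, Gm26624 under 12, and 2410018L13Rik and Gm26573 under 11. Without Trim28-KO animal 73 the adjusted p of 2410018L13Rik was 0.22, at a log2 fold change of 3.68.

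**Figure D2:**
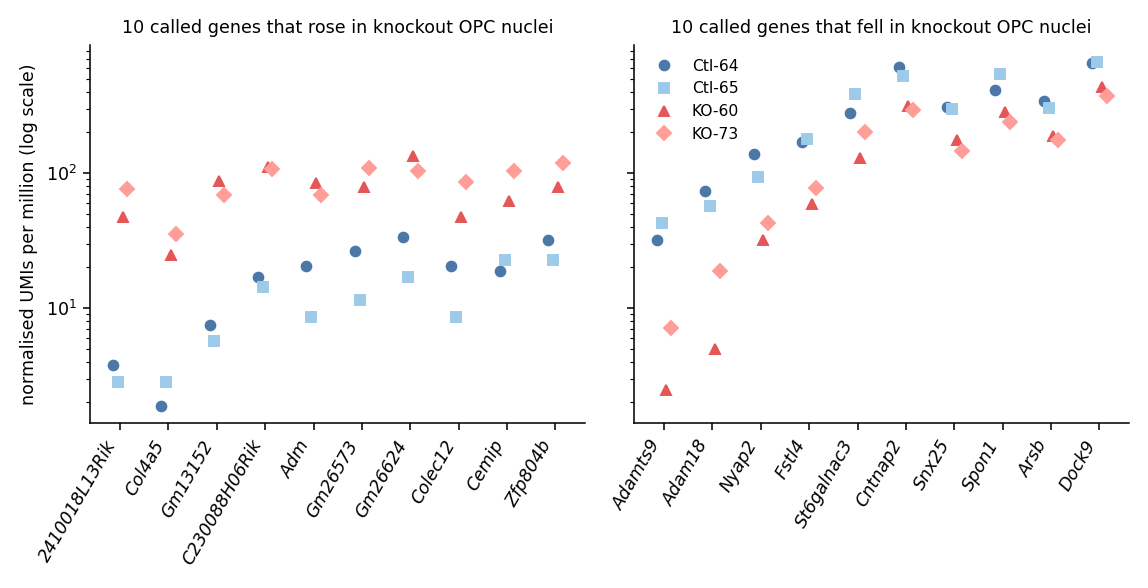
The vertical axes give normalised CPM of OPC nuclei on a log scale, with 1 symbol for each animal. The left panel holds the 10 called genes with the largest rises and the right panel the 10 that fell, and in none of them do Trim28-KO and control animals overlap.

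4 of the 5 genes lie side by side on chromosome 4 (GRCm38, GENCODE vM21 positions). C230088H06Rik is on the reverse strand at chr4:147018235-147492201 and Gm13152 on the forward strand at chr4:147492417-147513486. Their starts are 216 bases apart and point away from each other. Gm26624 lies at chr4:147136278-147457019 on the forward strand, within the span of C230088H06Rik. Gm26573 lies at chr4:146153456-147024959 on the reverse strand, and its start lies within the far end of C230088H06Rik. In the window from the start of Gm26573 to the end of Gm13152, which spans 1360 kb, the files hold 19 genes. The window was drawn around called genes, and these 4 were the ones in it with enough UMIs to be tested. Because these spans overlap and the region holds many alike zinc finger genes, reads could be split, lost or gained among them. The nuclear counts include introns, so reads of another transcript within a span could also count to a gene. The value of each single gene is uncertain. 2410018L13Rik is on chromosome 12, at chr12:22953997-23010284 on the reverse strand.

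The start regions of Gm13152 and 2410018L13Rik have close copies elsewhere on the same chromosomes, and each is shown here with its closest copy, since this likeness bears on how far single genes of such groups can be told apart. The sequences are those of RefSeq on GRCm38.p6, from 250 bases before the gene start to 50 after it, and capitals mark bases that lie in a run of 20 identical bases shared by both sequences of a pair.
Gm13152, chr4:147492167-147492466, forward strand: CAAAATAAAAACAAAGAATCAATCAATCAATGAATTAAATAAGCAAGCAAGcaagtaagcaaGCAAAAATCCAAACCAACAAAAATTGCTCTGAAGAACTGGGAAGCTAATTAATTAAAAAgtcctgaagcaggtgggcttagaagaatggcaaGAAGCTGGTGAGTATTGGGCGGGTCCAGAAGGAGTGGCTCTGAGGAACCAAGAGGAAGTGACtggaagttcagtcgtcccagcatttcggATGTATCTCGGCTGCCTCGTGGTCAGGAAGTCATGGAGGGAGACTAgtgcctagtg
Zfp980, chr4:145670447-145670746, forward strand: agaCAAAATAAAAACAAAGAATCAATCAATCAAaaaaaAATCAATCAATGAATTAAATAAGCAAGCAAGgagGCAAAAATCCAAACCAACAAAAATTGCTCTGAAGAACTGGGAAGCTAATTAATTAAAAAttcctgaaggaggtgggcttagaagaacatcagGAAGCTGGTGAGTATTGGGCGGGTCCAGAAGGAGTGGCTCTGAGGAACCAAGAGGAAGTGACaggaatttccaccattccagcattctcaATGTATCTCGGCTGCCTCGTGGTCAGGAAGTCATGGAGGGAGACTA
2410018L13Rik, chr12:23010194-23010493, reverse strand: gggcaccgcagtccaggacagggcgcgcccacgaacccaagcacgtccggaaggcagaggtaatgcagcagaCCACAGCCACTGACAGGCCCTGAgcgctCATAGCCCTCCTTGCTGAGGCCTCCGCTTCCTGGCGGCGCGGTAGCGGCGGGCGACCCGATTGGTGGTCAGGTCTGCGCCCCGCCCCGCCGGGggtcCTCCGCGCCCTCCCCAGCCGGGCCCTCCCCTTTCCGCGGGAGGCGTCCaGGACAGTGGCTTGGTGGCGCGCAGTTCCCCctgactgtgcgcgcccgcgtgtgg
Gm5784, chr12:19387620-19387919, forward strand: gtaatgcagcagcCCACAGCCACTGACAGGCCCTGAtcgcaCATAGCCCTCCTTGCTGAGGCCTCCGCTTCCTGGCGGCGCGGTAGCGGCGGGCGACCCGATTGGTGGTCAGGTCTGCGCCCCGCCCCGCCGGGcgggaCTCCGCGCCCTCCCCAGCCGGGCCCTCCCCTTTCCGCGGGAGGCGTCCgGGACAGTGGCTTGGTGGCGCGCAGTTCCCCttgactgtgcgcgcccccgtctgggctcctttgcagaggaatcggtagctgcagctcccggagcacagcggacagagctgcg

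Of the 300 bases of the Gm13152 promoter, 218 were in such shared runs with Zfp980, and 194 of those of 2410018L13Rik were shared with Gm5784. Among 32851 promoters of the same length, 8 others (0.0244%) shared at least 20 of these 20-base runs with Gm13152, all between positions 145670447 and 147702881 of chromosome 4. For 2410018L13Rik there were 11 (0.0335%), all on chromosome 12. The 8 genes with promoters like that of Gm13152 had no UMI in the control OPC nuclei and 0 to 3 UMIs in each Trim28-KO animal, and none of them was tested. Zfp979 had the most, with 2 and 3 UMIs, and Zfp980 had 1 and 2. Of the 10 genes with promoters like that of 2410018L13Rik 3 were in the files and none was tested. In animals 64, 65, 60 and 73 Gm5784 had 1, 0, 2 and 0 UMIs, Gm10479 had 2, 0, 0 and 1, and Gm9257 had none, so these were not higher in the Trim28-KO animals. The likeness is a description of these sequences.

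The same 5 genes were then read in the other cell types of these animals, in fits that were added after the OPC values were seen and that share the control animals. Oligodendrocytes, astrocytes and excitatory neurons gave called rises for all 5, at background shares of 2.94%, 1.07% and 8.32% of tested genes called in either direction. Log2 fold changes of 2410018L13Rik were 4.78 ± 0.63 in oligodendrocytes, 5.03 ± 0.52 in astrocytes and 3.30 ± 0.24 in excitatory neurons. Gm13152 stood at 2.82 ± 0.59, 3.27 ± 0.48 and 1.15 ± 0.22 in the same types, against 3.46 ± 0.51 in OPCs. In inhibitory neurons the 5 log2 fold changes lay between -0.42 and 0.40, and in microglia the 3 that could be tested lay between -0.56 and 0.46. No gene was called in inhibitory neurons (0% by edgeR, with 900 up and 811 down at an unadjusted p under 0.05) or in microglia (0%, with 255 up and 366 down). The difference between OPCs and oligodendrocytes was tested for these genes, and none of the 5 passed (edgeR adjusted p from 0.58 to 0.98). Gm26624 had the lowest of these p-values, with a difference of -0.96 ± 0.43 on the log2 scale.

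**Figure D3:**
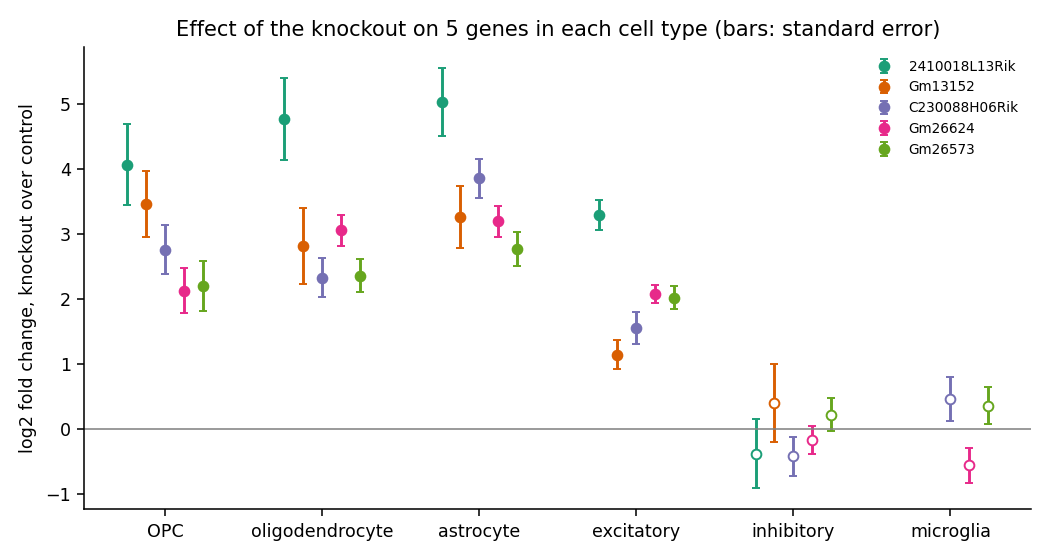
Points give the log2 fold change of Trim28-KO over control for 5 genes in 6 cell types, bars the standard error, and filled points an edgeR adjusted p under 0.05. In OPCs, oligodendrocytes, astrocytes and excitatory neurons all points are filled and above 0, and in inhibitory neurons and microglia all are open, between -0.56 and 0.46.

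Counted per nucleus, 24.8% and 17.6% of control OPC nuclei and 48.3% and 50.8% of Trim28-KO OPC nuclei held a UMI of any of the 5 genes. Thinned to 1000 UMIs each, which left out 1 OPC nucleus, the shares were 8.00% and 2.35% in the controls and 28.2% and 32.5% in the Trim28-KO animals. The groups did not overlap, but the 5 genes were chosen because they rose in these same nuclei. The gap was largely set by that choice, so it is a description and no test of it is given. In thinned inhibitory neurons, which lie outside the Emx1 lineage, the shares were 7.12% and 6.88% in the controls and 4.49% and 4.23% in the Trim28-KO animals, at a median depth of 9233 UMIs before thinning against 3511.5 in OPCs. In thinned microglia the shares were 28.1% and 23.3% in the controls and 24.4% and 28.5% in the Trim28-KO animals. Nearly all microglial UMIs were of C230088H06Rik, Gm26624 and Gm26573, while Gm13152 had 0 UMIs in each animal and 2410018L13Rik 1 or 2. At this depth a nucleus without a UMI cannot be called negative, and the shares do not give the fraction of OPCs that were recombined.

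**Figure D4:**
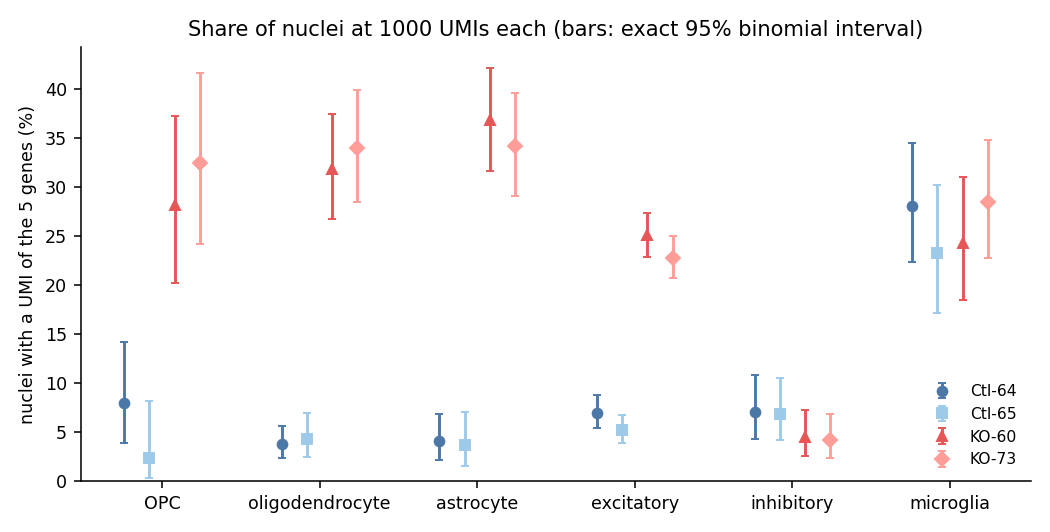
The vertical axis gives the percent of nuclei with at least 1 UMI of the 5 genes after each nucleus was thinned to 1000 UMIs, with the exact 95% binomial interval, by cell type and animal. The Trim28-KO OPC nuclei reach 28.2% and 32.5% against 8.00% and 2.35% in the controls, a gap largely set by the choice of the 5 genes in these nuclei. The microglia lie between 23.3% and 28.5% in all 4 animals.

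Vegfa and Adm, genes of secreted factors that act on blood vessels, were among the genes that rose. Vegfa encodes a growth factor of blood vessels, and its UMIs in OPC nuclei were 123 and 73 in controls 64 and 65 and 195 and 213 in Trim28-KO animals 60 and 73. As normalised CPM these were 231, 208, 483 and 505, so the Trim28-KO animals stood well above both controls (log2 fold change 1.16 ± 0.18, edgeR adjusted p = 0.00040), and the call held in all 13 alternative settings. A UMI of Vegfa was found in 45.6% and 36.5% of control and 55.1% and 57.5% of Trim28-KO OPC nuclei, and in thinned nuclei in 16.0% and 12.9% against 30.8% and 30.8%. In excitatory neurons Vegfa fell (log2 fold change -1.36 ± 0.16, edgeR adjusted p = 0.0053). In astrocytes the value was -0.05 ± 0.17, in oligodendrocytes -0.22 ± 0.34 and in inhibitory neurons 0.47 ± 0.15, none of these 3 called. The difference of its effect between OPCs and oligodendrocytes was 1.32 ± 0.34 and missed the threshold (edgeR adjusted p = 0.077). Adm, which encodes the vasodilator peptide adrenomedullin, had 11 and 3 UMIs in control and 34 and 29 in Trim28-KO OPC nuclei (log2 fold change 2.26 ± 0.43, adjusted p = 0.0054), and 8.80% and 3.53% against 22.0% and 18.3% of OPC nuclei held a UMI. Its call was lost without animal 60 (2.09, edgeR adjusted p = 0.0564). Astrocytes, where Adm had no UMI in the controls, showed it in 9 and 8 nuclei of the Trim28-KO animals, and the rise was called there (log2 fold change 6.37 ± 1.18, edgeR adjusted p = 0.041). Vegfa was the 1 called gene among 8 growth factor ligands tested, where 0.236% of all tested genes were called higher. The median log2 fold change of these ligands was -0.15 beside 0.0016 over all tested genes.

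Growth factor receptors and their signalling genes held no call. Pdgfra, one of the genes that chose the nuclei, stood at 1032 and 936 normalised CPM in the controls and 1113 and 1083 in the Trim28-KO animals. Of 10 other receptor genes tested, 2 lay above 0 and 8 below, with a median log2 fold change of -0.17. Erbb4, a neuregulin receptor, was at -0.08 ± 0.13, and Ntrk2, the receptor of brain-derived neurotrophic factor, at -0.06 ± 0.17. Of the ligands, Nrg1, a neuregulin, was at -0.37 ± 0.16 (edgeR adjusted p = 0.37) and Nrg3 at -0.31 ± 0.13. Among 19 genes of signalling and its feedback, 10 lay above 0 and 9 below.

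Genes of OPC identity and of differentiation were not called. Of 23 tested identity genes 9 lay above and 14 below 0, with a median log2 fold change of -0.12. Tnr, which encodes the perineuronal matrix protein tenascin-R, came closest, at 4602 and 5317 normalised CPM in the controls and 3568 and 3546 in the Trim28-KO animals (log2 fold change -0.48 ± 0.12, edgeR adjusted p = 0.065). Its groups did not overlap, yet it missed the threshold. Sox6, a transcription factor that restrains differentiation, was at -0.47 ± 0.15 (adjusted p = 0.16), Lhfpl3 at -0.26 ± 0.12, and Neu4 at -0.14 ± 0.19 with overlapping groups. Of 18 genes of commitment and differentiation 5 lay above 0 and 13 below, with a median of -0.14. Gpr17 had 89, 47, 62 and 62 UMIs in animals 64, 65, 60 and 73 (-0.02 ± 0.22), and Bcas1, which marks early myelinating cells, was at -0.23 ± 0.17. Of the myelin genes 4 could be tested and none was called, with Mbp, the myelin basic protein gene, at 8 and 8 UMIs in the controls and 17 and 17 in the Trim28-KO animals (1.16 ± 0.47, edgeR adjusted p = 0.34).

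Progenitor states among the OPC nuclei were read by single genes. A UMI of Gpr17, Bmp4 or Enpp6, genes of committed cells, was found in 46.4% and 40.0% of control and 38.1% and 40.0% of Trim28-KO OPC nuclei (exact permutation p = 0.667). Gpr17 alone was found in 38.4% of all OPC nuclei and in 0.503% of excitatory neurons, at median depths of 3511.5 and 12001.5 UMIs. A UMI of the cell division genes Mki67, Top2a, Cenpe or Cenpf was found in 4.00% and 7.06% of control and 1.69% and 4.17% of Trim28-KO OPC nuclei. Over all animals the share was 4.02% in OPCs, 7.21% in the deeper excitatory neurons, which do not divide, 1.07% in astrocytes and 0.723% in microglia. Thinned to 1000 UMIs it was 1.12% in OPCs and 0.584% in excitatory neurons, so the order of these types depended on depth, and no share of dividing OPCs was read. Thinning also turned the difference between the groups from -2.6 to 1.09 percentage points. Of 5 proliferation genes tested none was called (3 above and 2 below 0, median log2 fold change 0.03). The cyclin-dependent kinase gene Cdk6 had 21 and 13 UMIs in the controls and 7 and 6 in the Trim28-KO animals (log2 fold change -1.27 ± 0.49, edgeR adjusted p = 0.31), and the cyclin gene Ccnd2 was at 9 and 12 UMIs in the controls and 22 and 15 in the Trim28-KO animals (log2 fold change 0.88 ± 0.46).

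Of the cell adhesion genes 1 was called lower, where 0.139% of all tested genes were. Of 38 tested genes of synaptic and contact adhesion 34 lay below 0, with a median log2 fold change of -0.19 beside 0.0016 over all tested genes. The called gene was Cntnap2, a neurexin-family gene, with 327 and 184 UMIs in controls 64 and 65 and 126 and 123 in Trim28-KO animals 60 and 73, or 615, 525, 312 and 291 normalised CPM (log2 fold change -0.92 ± 0.18, edgeR adjusted p = 0.0054). Both Trim28-KO animals were below both controls. Cntnap2 was also below 0 in oligodendrocytes (-0.31), astrocytes (-0.79), excitatory neurons (-0.32), inhibitory neurons (-0.24) and microglia (-0.82), and was called in none of them. Control inhibitory neurons held it at 6437 and 6578 normalised CPM. The part of free RNA in its OPC values was not tested. In OPC nuclei with at most 1 UMI in each other type's sum its log2 fold change was -2.33, and with a marker sum of at least 2 it was -0.65 and no longer called (edgeR adjusted p = 0.11). Without animal 73 it was -0.88 (edgeR adjusted p = 0.10). Lsamp and Lrrc4c, abundant members of the same list, were at -0.24 ± 0.11 and -0.11 ± 0.11 and were not called. Dscam was at -0.41 ± 0.13 (adjusted p = 0.15).

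The other genes that fell had varied roles. Fstl4, a follistatin-like gene, had 90 and 63 UMIs in the controls and 24 and 33 in the Trim28-KO animals (log2 fold change -1.33 ± 0.26, edgeR adjusted p = 0.0057). Adamts9, a protease of proteoglycans that include versican, went from 17 and 15 UMIs to 1 and 3 (-2.84 ± 0.66, adjusted p = 0.032). Its counts were low, and the call was lost in each of the 4 fits that left out an animal (log2 fold change -3.75 to -2.34). Adam18, a gene of the membrane-bound ADAM family, fell from 39 and 20 to 2 and 8 UMIs, and Nyap2, an adaptor of phosphoinositide signalling, from 74 and 33 to 13 and 18. Spon1, a matrix gene of axon growth, fell by 0.86 on the log2 scale, the sialyltransferase gene St6galnac3 by 0.98, and Arsb, a lysosomal enzyme that removes sulfate from chondroitin and dermatan sulfate, by 0.83. Snx25, of the sorting nexins, fell by 0.91 and Dock9, an activator of the GTPase Cdc42, by 0.72. Without animal 60 the calls of Fstl4 (-1.17), Adam18 (-1.81), Nyap2 (-1.50), St6galnac3 (-0.72), Snx25 (-1.07), Dock9 (-0.85) and Arsb (-0.91) were lost, and without animal 73 those of Spon1 (-0.75), Snx25 (-0.80), Dock9 (-0.63) and Arsb (-0.79). Those of Spon1 (-0.67) and St6galnac3 (-0.76) were lost without animal 65, and that of Arsb (-0.75) without animal 64. In excitatory neurons Nyap2 (-0.67), Spon1 (-0.92) and Arsb (-0.73) were also called lower, in oligodendrocytes St6galnac3 (-0.61) and in astrocytes Adamts9 (-2.26). None of the 18 tested genes of the chondroitin sulfate matrix, which include Tnr and Ptprz1 (-0.12 ± 0.13), was called.

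Some matrix and vessel-wall genes were also among the rises. OPC nuclei with 2 or more UMIs of fibroblast and mural genes numbered 6 and 3 in controls 64 and 65. In Trim28-KO animals 60 and 73 there were 4 and 7. Whether such nuclei set these rises was not tested. Col4a5, a basement membrane collagen, had 1 and 1 UMIs in the controls and 10 and 15 in the Trim28-KO animals, Colec12, a collectin receptor, 11 and 3 against 19 and 36, and Cemip, which degrades hyaluronan, 10 and 8 against 25 and 44. Cped1 had 18 and 9 UMIs in the controls and 32 and 46 in the Trim28-KO animals. In these genes, as in the fibroblast and mural list as a whole, the highest value was that of animal 73. Without the 20 OPC nuclei that held 2 or more UMIs of that list, none of the 4 had enough UMIs left to be tested. Colec12 and Cped1 are members of the list, so this filter lowered their counts by its own rule, while Col4a5 and Cemip are not. Of the 17 genes that rose 13 were still called, and so were all 10 that fell. Of the 4 tested members of the list, 2 (Cped1 and Colec12) were called higher, where 0.236% of all tested genes were. Their median log2 fold change was 1.77, beside 0.0016 over all tested genes. Zfp804b, a zinc finger gene, rose from 17 and 8 UMIs to 32 and 50 (1.80 ± 0.35) and was still called without these nuclei (1.81), but lost its call without animal 73 (1.48, edgeR adjusted p = 0.26). Without animal 73 Colec12 and Cemip, each at 1.57, and Cped1, at 1.37, were not called either, and Col4a5 lost its call without any 1 of animals 64, 65 and 60. With a marker sum of at least 2 the log2 fold changes were 0.41 for Colec12, 0.04 for Cped1, 0.65 for Cemip and 0.69 for Zfp804b, none of them called.

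Neuronal and other transcripts completed the rises, named here after their values were seen except Nrgn. Nrgn, a postsynaptic calmodulin-binding protein gene, had 38 and 23 UMIs in the controls and 62 and 72 in the Trim28-KO animals (log2 fold change 1.23 ± 0.26, edgeR adjusted p = 0.013). Cck, a neuropeptide gene, had 73 and 29 against 110 and 109 (1.22 ± 0.23), and Ubb, a ubiquitin gene, 46 and 20 against 69 and 81 (1.29 ± 0.25). All 3 genes stood above 0 in each of the other 5 cell types, between 0.39 and 0.77 for Nrgn, 0.51 and 0.79 for Cck and 0.37 and 0.95 for Ubb, on the log2 scale. Nrgn and Cck are neuronal transcripts, and the part of free RNA in their OPC values was not tested. The 20 neuronal transcripts summed to 18625 and 18843 CPM in control and 17885 and 18465 CPM in Trim28-KO OPC nuclei, so the sum was not higher in Trim28-KO animals. Abundant members set this sum. In the controls Csmd1 alone stood at 6002 and 6832 normalised CPM and Nrgn at 71.4 and 65.6. The sum therefore says little about Nrgn or about free RNA. Htra1, a secreted protease gene, rose by 1.43 ± 0.33 on the log2 scale, and the transcription factor gene Ebf1 by 0.94 ± 0.22. Htra1 was also called higher in oligodendrocytes (1.08 ± 0.24). It was not called in astrocytes (0.64), excitatory neurons (0.09) or inhibitory neurons (-0.01). Ebf1 was at 2.83 ± 0.65 in inhibitory and 0.11 ± 0.47 in excitatory neurons, not called in either. Of these 5 genes only Cck kept its call in each fit that left out an animal. Without animal 60 the log2 fold change was 1.28 for Nrgn, 1.04 for Htra1 and 0.67 for Ebf1, without animal 73 it was 1.15 for Nrgn and 1.20 for Ubb, and without animal 65 it was 0.81 for Ebf1, none of them called. The long non-coding RNA Meg3 was at 2333 and 2077 normalised CPM in the controls and 3006 and 3267 in the Trim28-KO animals, without overlap, and missed the threshold (0.51 ± 0.13, edgeR adjusted p = 0.065).

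Receptors, channels and silencing factors gave no call in OPCs. None of 26 glutamate and GABA receptor genes passed, 7 above and 19 below 0, with Gria2 at -0.09 ± 0.14. None of 23 ion channel genes passed (median log2 fold change -0.22), with Kcnd2 at -0.27 ± 0.12 and Kcnip4 at -0.13 ± 0.14. The same held for 20 axon guidance genes (median 0.04) and 15 genes of the Notch, BMP and Wnt pathways (median -0.03). Of 21 tested genes that silence chromatin with Trim28, 7 lay above and 14 below 0, and the DNA methyltransferase gene Dnmt3a was at 0.39 ± 0.21. Of 33 listed genes of the interferon response and nucleic acid sensing 8 could be tested and none was called (median -0.01), with Adar, which edits double-stranded RNA, at -0.18 ± 0.31. Of the 33 genes 6, among them Isg15 and Irf7, had no UMI in any OPC nucleus. Astrocyte (9 tested), microglia (4) and inhibitory neuron markers (8) held no call. Of the 13 excitatory neuron markers Nrgn was the 1 that was called, where 0.236% of all tested genes were called higher. None of the endothelial markers had enough UMIs to be tested, with 15, 6, 10 and 4 summed UMIs in animals 64, 65, 60 and 73.

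Genes that the series lists as raised without Trim28 in other samples were nearly silent in OPC nuclei. Of 11 in the files none could be tested, and their UMIs summed to 6 and 2 in the controls and 14 and 21 in the Trim28-KO animals. The list comes from this study's own samples, so its direction is not independent evidence. Mnd1, a meiotic recombination gene, had no UMI in the controls and 10 and 4 in the Trim28-KO animals, and 12 of the 21 UMIs of animal 73 were of She. The clustered protocadherins, surface proteins that set neuronal identity, were at 0 UMIs for 57 of 58 genes, and Pcdha1 had 0 UMIs in the controls and 4 and 7 in the Trim28-KO animals. A count of 0 allows up to 3 UMIs in a library, so lower levels were not detectable. Whether depth or the assignment of reads to genes set the zeros of the protocadherins was not tested.

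OPCs were next compared with oligodendrocytes, the cells they produce, by the difference of the 2 knockout effects within the same animals. Of 10011 genes tested 6 had a higher effect in OPCs (0.0599%) and 22 a lower one (0.22%). Slc44a5, a choline transporter-like gene, had the strongest difference, -3.82 ± 0.35 on the log2 scale (edgeR adjusted p = 1.2e-11). It stood at 128 and 131 CPM in control and 124 and 69.3 CPM in Trim28-KO OPCs, with no call, and rose from 20.3 and 8.97 CPM to 155 and 174 CPM in oligodendrocytes. Ctnna3, an alpha-catenin gene of cell junctions, fell in oligodendrocytes from 1254 and 1301 CPM to 438 and 466 CPM, while its OPC log2 fold change was 0.33 ± 0.19, a difference of 1.81 ± 0.23. In both genes the change was called in oligodendrocytes and not in OPCs. Zfp804b and Fstl4 were called in OPCs too. Zfp804b rose in OPCs and was at -0.77 ± 0.26, not called, in oligodendrocytes (difference 2.51 ± 0.41), and Fstl4 fell in OPCs and was at -0.11 ± 0.23 in oligodendrocytes (difference -1.29 ± 0.31). Sox6 and Gpc5, genes much higher in OPCs, were below 0 in OPCs and above 0 in oligodendrocytes, with differences of -1.13 ± 0.26 and -0.99 ± 0.22, and no call in either type alone. Without control animal 64 the lower calls went from 22 to 6, and 4 of the 22 were still called. Fstl4, Sox6 and Gpc5 lost their calls there, Fstl4 and Gpc5 also without animal 60, and Sox6 also without animal 73. Without animal 73 there were 17 higher and 36 lower calls.

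**Figure D5:**
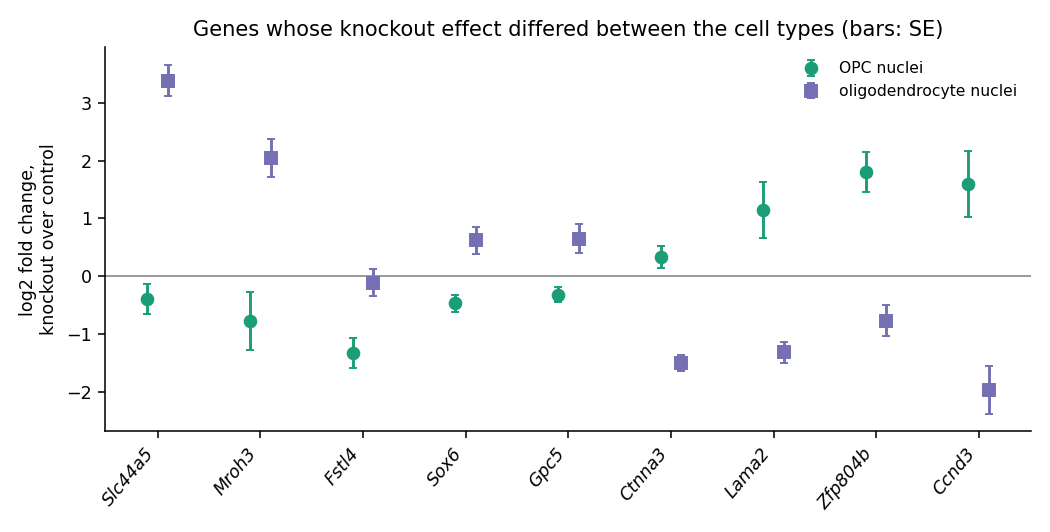
Points give the log2 fold change of Trim28-KO over control in OPC and oligodendrocyte nuclei, with bars for the standard error, for 9 genes whose effects differed between the types and that were tested in each. Slc44a5, Mroh3, Ctnna3, Lama2 and Ccnd3 were called in oligodendrocytes and not in OPCs, and Zfp804b and Fstl4 in OPCs and not in oligodendrocytes.

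Bulk cortex gave a readout that the rule did not use, though 4 of its 6 animals are the same. It mixes RNA of all cell types, and OPC nuclei were 3.13% of the nuclei. In Trim28-KO animals 60 and 73 excitatory nuclei held 843 and 1072 UMIs of 2410018L13Rik, against 19 and 32 in OPC nuclei. A bulk value therefore does not show whether a gene changed in OPCs. Of 16271 genes tested, 142 rose (0.873%) and 81 fell (0.498%). Of the 27 genes called in OPC nuclei 24 were tested in bulk and 2 were called. 2410018L13Rik had 18, 11 and 6 reads in controls 64, 65 and 77 and 144, 181 and 108 reads in Trim28-KO animals 60, 73 and 76 (log2 fold change 4.08 ± 0.24, edgeR adjusted p = 2.1e-06). Gm13152 had 11, 14 and 21 reads in the controls and 52, 79 and 55 in the Trim28-KO animals (2.46 ± 0.29, adjusted p = 0.00080). The other 3 genes of the set had 0 to 3 reads in each bulk library. Gm26573 had 0 reads in each, while excitatory nuclei of Trim28-KO animals 60 and 73 held 1617 and 1374 UMIs of it. The nuclear counts include introns, and the source of this gap was not tested. Vegfa was at -0.05 ± 0.12 in bulk cortex and Cntnap2 at -0.11 ± 0.08. The OPC markers Pdgfra (-0.26 ± 0.12), Vcan (0.13 ± 0.12), Cspg4 (-0.09 ± 0.29) and Neu4 (0.08 ± 0.18) were not called. In bulk tissue fewer OPCs and less RNA per OPC cannot be told apart.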

How the data were processed

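The authors deposited raw UMI counts of every barcode and gene, made with Cell Ranger 3.0 on an mm10 reference that includes introns, and raw read counts per gene of bulk cortex from STAR alignments and featureCounts of Subread 1.6.3, counted by strand. The files held 14296 barcodes, the number of nuclei the study gives, and its filter of 3 median absolute deviations leaves 13671. All barcodes were used, and no doublet caller was run. Summing per animal replaces the study's test over single nuclei. UMIs of OPC nuclei were summed per animal (371437 to 587868) and tested, as were bulk counts (16748967 to 25345083 reads), in R 4.3.3 with edgeR 4.0.16 (filterByExpr, TMM, quasi-likelihood test) and DESeq2 1.42.0 as an alternative. The standard error is the log2 fold change over the square root of F. The difference from oligodendrocytes was an interaction term with the animal as a block. Replicates are animals, and p-values measure the spread between 2 and 2 of them, or 3 and 3. In simulated OPC sums of 7214 genes edgeR recovered 36% of 2-fold and 86% of 4-fold changes, with 6 false calls. DESeq2 recovered 10% and 57%, with 0. The simulated counts followed the fitted trend of spread, with no spread particular to a gene. They therefore do not give the number of false calls in the real sums.

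Genes were named by a rule: markers, Trim28, the 10 largest called changes in each direction without overlap between groups, up to 4 abundant and 2 lowest-p members of each of 24 lists, and the top genes of the other comparisons. Members and lists were chosen with earlier results of these data known. The 5-gene set, its thinned shares and the fits in other cell types were added after the data were seen. In OPC nuclei the 20 genes of the rule are not reported as tests. Other samples and transposable element tables were not used here. Values of some genes the rule names are not reported here.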

Additional observations from a re-analysis of the deposited data

Results flagged for a closer look

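The knockout effect differed between OPCs and oligodendrocytes, by the edgeR test of the difference itself, for 28 genes, 6 higher and 22 lower in OPCs. On the log2 scale the difference was 3.56 for Ccnd3, a cyclin gene, 3.29 for 9330111N05Rik, 2.51 for Zfp804b, 2.43 for Lama2, a laminin gene, and 1.81 for Ctnna3. It was -3.82 for Slc44a5, -3.24 for Tmc1, -3.23 for Rpl34, -2.81 for Mroh3, -2.58 for Rps26-ps1, -2.46 for 5730559C18Rik, -1.29 for Fstl4, -1.13 for Sox6 and -0.99 for Gpc5. Without control 64 the differences of Tmc1, Rpl34, Rps26-ps1, 5730559C18Rik, Fstl4, Sox6, Gpc5, Ccnd3 and 9330111N05Rik were not called, and without control 65 that of 5730559C18Rik was not. Without Trim28-KO 60 those of Tmc1, Rps26-ps1, Fstl4, Gpc5 and 9330111N05Rik were lost, and without Trim28-KO 73 those of Mroh3, Sox6 and 5730559C18Rik. Fstl4 also lost its call with a sum of at least 2 for both types. In OPC nuclei Tmc1, Rpl34, Rps26-ps1 and 9330111N05Rik had at most 13 UMIs in an animal and could not be tested alone. Rpl34 and Rps26-ps1 have many near-identical copies, so that their values are uncertain. Ccnd3 and Lama2 had 5 and 4 and 11 and 4 UMIs in control OPCs and 12 and 14 and 15 and 16 in Trim28-KO OPCs, and neither was called in OPCs alone. In oligodendrocytes alone Ccnd3 (log2 fold change -1.97), Lama2 (-1.32) and 9330111N05Rik (-3.16) were called lower. Tmc1 (3.74), Rps26-ps1 (2.18), Mroh3 (2.04) and Rpl34 (1.67) were called higher there.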

How the results depend on the processing

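Counts below are genes up and down, against 17 and 10 in OPC nuclei. DESeq2 called 3 and 0, no filter on low counts 29 and 29, at least 10 UMIs in 2 animals 36 and 20, a marker sum of at least 5 gave 6 and 0, and nuclei with at most 1 UMI of each other type 42 and 62, of which 14 and 9 were in the main calls. Leaving out 1 animal at a time gave 15 to 89 up and 7 to 82 down, with 89 and 82 without control 64, 27 and 25 without control 65, 18 and 8 without Trim28-KO 60, and 15 and 7 without Trim28-KO 73. Those left a group with 1 animal, assumed to vary like the other group. The cause of these shifts was not tested. TMM against RLE factors, the filter on deviations and a marker sum of at least 2 kept the counts within 1.5 times.

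For the difference from oligodendrocytes, a sum of at least 2 for both types gave 15 higher and 41 lower, and leaving out 1 animal gave 7 to 17 higher and 6 to 36 lower, moved most by control 64 (11 and 6) and Trim28-KO 73 (17 and 36). For bulk cortex, no filter gave 358 and 263, and leaving out 1 animal 81 to 244 up and 23 to 143 down, lowest without control 77 and highest without Trim28-KO 76, also with 84 and 27 without control 64 and 97 and 36 without control 65. The difference in cell division genes went from -2.6 to 1.09 percentage points after thinning. Of 1999 values of single genes under alternatives 1850 kept their side of the threshold, 120 lost and 29 gained a call. Staying uncalled counted as keeping the side, so these numbers do not give the stability of the calls. Among the genes called in OPC nuclei, C230088H06Rik, Gm13152 and Vegfa kept their calls in all 13 alternative settings. Every other gene called there lost its call in at least 1 setting. Col4a5 kept its call in 4 of the 9 settings in which it was tested, and Adamts9 in 7 of 13. No gene called in the main or the alternative fit reversed direction. For genes called in neither fit a change of direction was not counted. Low UMI counts limit the OPC results. No paired analysis was possible because the animals share no replicate numbers between groups.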
